A study of Mus musculus with 12 samples.

Results

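The genes described here encode the translocases that carry proteins into mitochondria, the TOM complex of the outer membrane and the TIM complexes of the inner membrane and the space between them. They were taken by name, as every row of the count table whose symbol starts with Timm or Tomm followed by a digit, which gave 24 of 38924 genes. Messenger RNA was measured by RNA sequencing in interscapular brown fat, the heat-producing fat depot between the shoulder blades. The mice were wild-type C57BL/6J, with no transgene named in the labels, and lived at 30, 22 or 6 °C from 10 to 14 weeks of age. Each temperature had 4 mice and 1 library per mouse, which makes 12 libraries. The labels call 30 °C thermoneutral, 22 °C room temperature and 6 °C severe cold. At 22 and 6 °C every library belongs to a numbered mouse (1 to 4). At 30 °C this holds for mice 1 and 2, while 2 libraries carry the letter of that group with numbers that match no title in it, and they are called mice A and B. Which mice these are is not known.

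Nearly all mitochondrial proteins are made in the cytosol and must be brought in. Receptors of the TOM complex (Tom20, Tom22 and Tom70) bind the precursors and pass them through the Tom40 channel, with the small subunits Tom5, Tom6 and Tom7 shaping the complex. Small TIM chaperones then carry hydrophobic precursors across the space between the membranes, the TIM22 complex inserts carriers of the solute carrier family into the inner membrane, and the TIM23 complex with its motor draws proteins with a presequence into the matrix. Brown adipocytes are packed with mitochondria, and their uncoupling protein and metabolite carriers are among the proteins that take the small TIM and TIM22 route.

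Library totals ranged from 18290162 to 32513051 counts, apart from 86438386 in 22 °C mouse 3, whose library code (8846) also stands apart from the other codes. Of the 12 brown adipocyte markers examined, among them Ucp1, Cidea, Dio2 and Prdm16, none was at 0 in any library. Levels are given as CPM, read counts set to a common library size, after TMM scaling, a scaling that lines up the bulk of the genes between libraries, with the SD over 4 mice. Differences are log2 fold changes with their standard error (SE) from edgeR's quasi-likelihood test over all 14870 tested genes, and a gene is said to have risen or fallen where the Benjamini-Hochberg adjusted p was under 0.05. Of the 24 genes, 22 had enough reads to be tested. Tomm20l and Timm8a2, paralogs of Tomm20 and Timm8a1, had 11 and 5 reads in all 12 libraries together and were not tested. In whole tissue, fewer cells of a type and less RNA per cell cannot be told apart.

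Most translocase messenger RNAs rose from 30 °C to 22 °C. Between 22 °C and 6 °C the counts called in either direction lay near the shares of all tested genes. At 22 °C against 30 °C, 18 of 22 tested genes rose and 0 fell by edgeR's test, where 44.6% of all tested genes passed, 21.8% rising and 22.8% falling. By unadjusted p, 20 were higher and 0 lower, and DESeq2 called 19 and 0. Shares of all tested genes are given for the main fit only and were not counted by these criteria. At 6 °C against 22 °C, 3 rose and 5 fell, where 34.2% of all tested genes passed, 16.9% rising and 17.4% falling. At 6 °C against 30 °C, 13 rose and 1 fell, where 56.8% of all tested genes passed, 25.3% rising and 31.5% falling. The median log2 fold change of the 22 genes was 0.50, -0.16 and 0.40 in the 3 comparisons in this order, beside -0.02, -0.03 and -0.11 for all tested genes. With a trend on exon length removed, the median from 22 °C to 6 °C was 0.0077, with 12 of 22 genes positive instead of 10.

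The counts depended on how the libraries were scaled. With total counts as the only scaling, which moved the median gene by -0.32 at 6 °C and by -0.26 at 22 °C against 30 °C, 10 of the 22 genes were higher and 2 lower at 22 °C against 30 °C, 9 higher and 5 lower at 6 °C against 30 °C, and 2 higher and 9 lower at 6 °C against 22 °C. The median of the 22 genes was then 0.24 at 22 °C and 0.086 at 6 °C, both against 30 °C. How many of all tested genes passed with this scaling was not counted. The 8 genes that no longer passed at 22 °C against 30 °C were Tomm20, Tomm40l, Tomm70a, Timm8a1, Timm10b, Timm17b, Timm44 and Timm50, with log2 fold changes from 0.07 (Tomm40l) to 0.33 (Timm8a1). Genes that passed in either fit and changed direction are named below with their values. At 6 °C against 30 °C, Timm44 (-0.11), Timm17b (-0.13) and Timm23 (-0.068) also changed sign without passing in either. Leaving out the pair of 30 °C libraries matched by letter gave 16 higher and 0 lower at 22 °C and 13 higher and 1 lower at 6 °C against 30 °C.

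**Figure D1:**
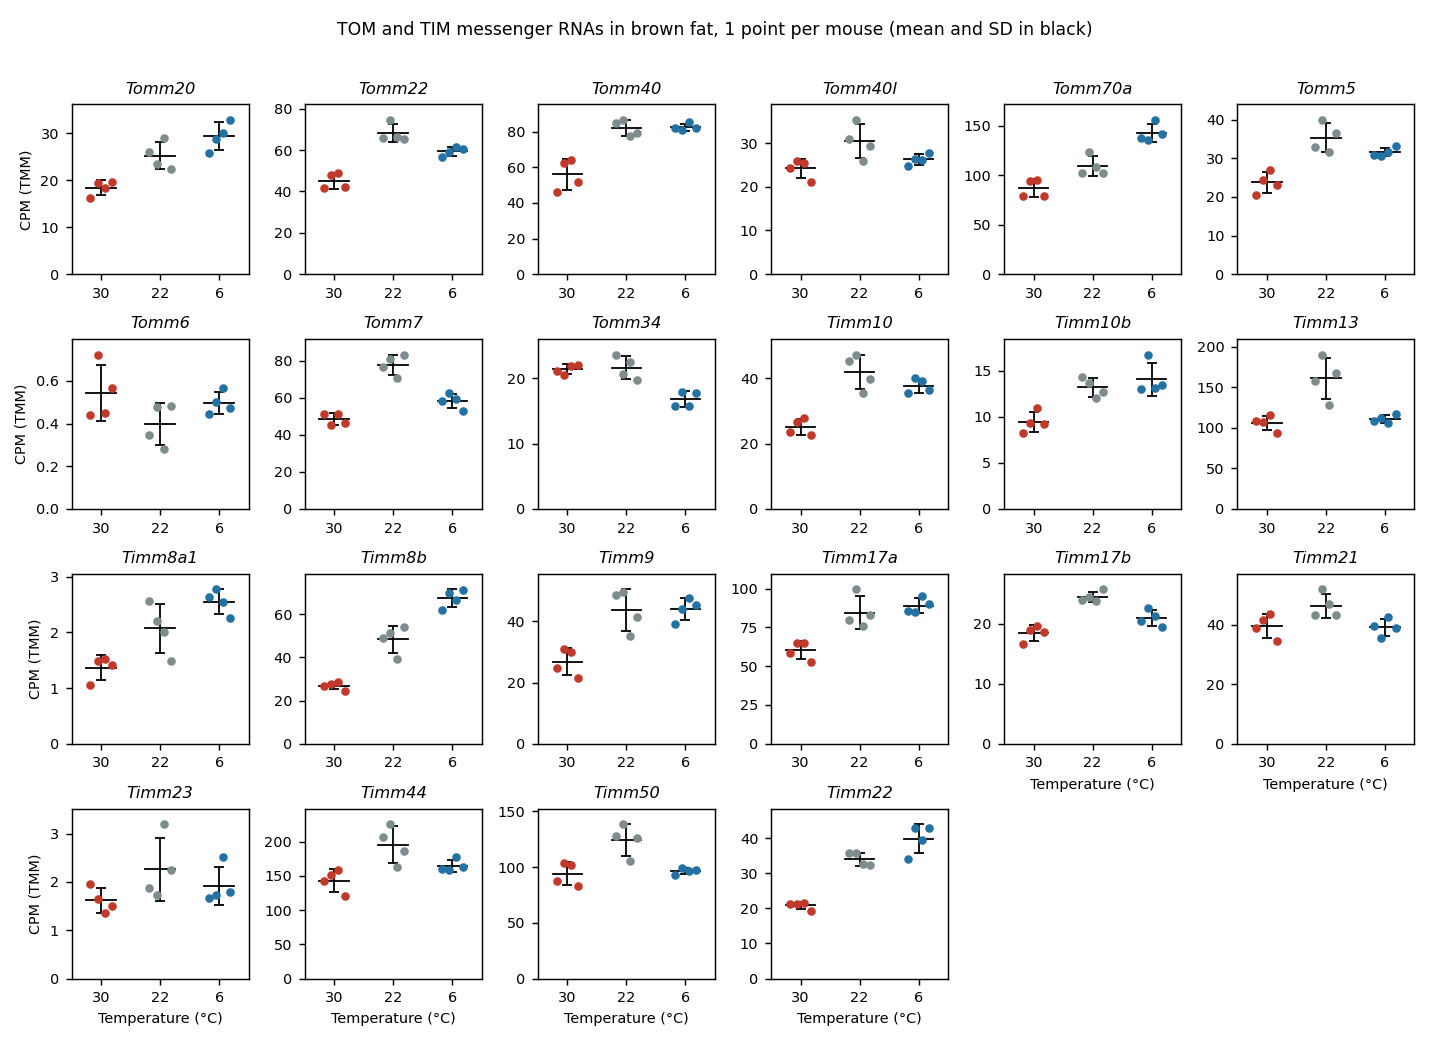
TMM-normalised CPM of the 22 tested TOM and TIM genes at 30, 22 and 6 °C, with 1 point per mouse and the mean and SD of 4 mice in black, each panel on its own scale from 0. For 17 genes all 4 mice at 22 °C lie above all 4 mice at 30 °C, and Timm8b and Tomm70a climb again at 6 °C while Timm13 and Tomm7 come back down.

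For 17 of the 22 genes the 4 mice at 22 °C were all above the 4 mice at 30 °C, a pattern that 18.9% of all tested genes had, and the reverse occurred for 0 of the 22. In either direction, 38.9% of all tested genes had groups without overlap. Between 22 °C and 6 °C, 2 genes were higher without overlap (17.8% of all) and 7 lower (17.1% of all), with 34.9% of all tested genes in either direction. The 2 that rose in both steps without overlap were Timm8b and Tomm70a, and 4.99% of all tested genes did so. In the 22 °C group, mouse 3, the deep library, had the lowest value for 14 of the 22 genes. Libraries of ordinary depth also stood at an extreme of their group. Of the 22 genes, 30 °C mouse A was highest for 14, 22 °C mouse 2 highest for 13 and 6 °C mouse 1 lowest for 12. The part of 22 °C mouse 3 in the results was measured by leaving it out. After this 18 genes were higher and 0 lower at 22 °C against 30 °C, and 3 higher and 6 lower at 6 °C against 22 °C.

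Among the receptors and the channel of the outer membrane, Tomm70a stood out by rising in both steps. Tomm70a encodes the receptor for carrier precursors delivered by cytosolic chaperones, and lies on chromosome 16 from 57121703 to 57156705 (GRCm38, plus strand). Its level was 78.9, 94.1, 95.3 and 79.0 CPM at 30 °C (mice 1, 2, A and B), 102, 124, 108 and 103 CPM at 22 °C (mice 1 to 4), and 138, 135, 156 and 141 CPM at 6 °C (mice 1 to 4). The 3 groups did not overlap. Its log2 fold change was 0.33 at 22 °C against 30 °C (SE 0.09, adjusted p = 0.00891 by edgeR) and 0.39 at 6 °C against 22 °C (SE 0.09, adjusted p = 0.00538). Over the whole range it rose by 0.71 (SE 0.09, adjusted p = 2.36e-05), and by 0.40 with total counts only. With total counts only its first step was 0.07 (adjusted p = 0.44).

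The other receptors and the main channel gene rose at 22 °C, and none of them passed between 22 °C and 6 °C. Tomm20, a receptor for presequences, had 16.2, 19.5, 18.4 and 19.6 CPM at 30 °C, 25.9, 23.4, 29.0 and 22.5 CPM at 22 °C, and 25.7, 28.8, 30.1 and 32.8 CPM at 6 °C. All mice at 22 and 6 °C were above those at 30 °C, while the 22 and 6 °C groups overlapped. Its log2 fold change against 30 °C was 0.46 at 22 °C and 0.67 at 6 °C (SE 0.10 for both, adjusted p = 0.00297 and 1.25e-04). Tomm22, the central receptor of the complex, had 41.6, 48.2, 49.0 and 41.9 CPM at 30 °C, 66.0, 74.6, 66.5 and 65.2 CPM at 22 °C, and 56.5, 59.2, 61.4 and 60.3 CPM at 6 °C. The 6 °C group lay between the others without overlap, although the step from 22 °C to 6 °C missed the threshold (-0.20, SE 0.07, adjusted p = 0.0535). Tomm22 rose by 0.59 at 22 °C and by 0.39 at 6 °C against 30 °C (adjusted p = 6.51e-05 and 5.78e-04), and the latter was 0.08 with total counts only (adjusted p = 0.272).

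Tomm40, the gene of the channel itself, had 46.3, 62.3, 64.1 and 51.5 CPM at 30 °C, 85.0, 86.7, 77.9 and 79.2 CPM at 22 °C, and 81.9, 81.2, 85.5 and 81.9 CPM at 6 °C. It rose by 0.55 at 22 °C and by 0.56 at 6 °C against 30 °C (SE 0.09 for both, adjusted p = 4.87e-04 and 2.51e-04), with a step of 0.01 between 22 °C and 6 °C (adjusted p = 0.955). Its paralog Tomm40l rose by 0.33 at 22 °C (adjusted p = 0.0141) and stood at 0.12 at 6 °C against 30 °C (adjusted p = 0.303), which turned to -0.19 with total counts only (adjusted p = 0.048). Its rise at 22 °C did not pass once the letter-matched libraries were left out (0.27, adjusted p = 0.0999). Of the exon bases of Tomm40l, 64.3% lie under Nr1i3 on the other strand, and since the strand setting of the counting is not given, reads of the 2 genes cannot be told apart. Nr1i3 itself was given 8 to 27 reads per library.

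The small TOM subunits also rose at 22 °C where they could be measured. Tomm7, whose product tunes the assembly of the complex and the capture of the kinase PINK1, had 51.3, 45.3, 51.2 and 46.4 CPM at 30 °C, 76.6, 80.8, 70.7 and 83.4 CPM at 22 °C, and 58.3, 62.6, 59.7 and 53.2 CPM at 6 °C. The 3 groups did not overlap, with 6 °C between the others. Tomm7 rose by 0.68 at 22 °C (SE 0.08, adjusted p = 3.24e-05) and fell by 0.41 from 22 °C to 6 °C (SE 0.08, adjusted p = 0.00133). Over the whole range it rose by 0.27 (adjusted p = 0.00874), a direction that turned with total counts only (-0.048, adjusted p = 0.587). Tomm5, whose product passes precursors to the channel, averaged 23.8 ± 2.65, 35.3 ± 3.77 and 31.6 ± 1.07 CPM at 30, 22 and 6 °C (SD, n = 4). It rose by 0.57 at 22 °C and by 0.41 at 6 °C against 30 °C (adjusted p = 3.90e-04 and 0.0023), and the latter was 0.09 with total counts only (adjusted p = 0.363).

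Tomm6 could not be followed. It was given 7 to 24 reads per library, and 76.0% of its exon bases lie within the overlapping gene Gm21981 on the same strand. Its log2 fold changes had SEs of 0.27 to 0.29 and did not pass between any pair of temperatures with TMM scaling. With total counts only it was lower at 22 °C against 30 °C (-0.77, adjusted p = 0.0303).

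Tomm34 went the other way. It encodes a cytosolic protein that binds heat shock chaperones and precursors before they reach the outer membrane, so it is named after the complex but is not a membrane subunit. Its level was 21.1, 20.4, 21.9 and 22.1 CPM at 30 °C, 23.6, 20.7, 22.4 and 19.6 CPM at 22 °C, and 15.8, 17.9, 15.8 and 17.7 CPM at 6 °C. The mice at 30 and 22 °C overlapped, and all mice at 6 °C lay below both. Tomm34 fell by 0.35 at 6 °C against 30 °C (SE 0.08, adjusted p = 0.00264) and by 0.36 against 22 °C (SE 0.08, adjusted p = 0.00442), and at 22 °C against 30 °C it stood at 0.02 (SE 0.08, adjusted p = 0.889), which turned to -0.25 with total counts only (adjusted p = 0.0442). It was the 1 gene of the set that fell against 30 °C with TMM scaling.

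The small TIM chaperones held the largest rise of the set and one of the clearest reversals, in a pair of genes whose products work as partners. Timm8b encodes a subunit of the kind that joins Tim13 to escort hydrophobic precursors such as Tim23. It lies on chromosome 9 from 50603910 to 50605320 on the plus strand, and Timm13 on chromosome 10 from 80899450 to 80900969 on the minus strand. The 250 bases before each start are shown because the 2 genes moved apart in the cold, and come from RefSeq (GRCm38.p6), chr9:50603651-50603900 on the plus strand and chr10:80900970-80901219 on the minus strand, 5′ to 3′. Capitals mark matches to motifs of factors known for mitochondrial genes, searched on both strands: CAAGGTCA (estrogen-related receptors), CGCATGCG (the NRF1 core, a palindrome), the longer NRF1 motif, which shares letters with that core, and CCGGAAGT (the ETS family factor GABP).
Timm8b: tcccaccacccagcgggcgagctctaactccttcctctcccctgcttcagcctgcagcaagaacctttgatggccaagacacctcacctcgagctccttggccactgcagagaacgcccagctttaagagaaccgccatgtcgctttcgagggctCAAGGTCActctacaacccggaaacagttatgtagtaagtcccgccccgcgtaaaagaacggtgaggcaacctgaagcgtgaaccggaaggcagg
Timm13: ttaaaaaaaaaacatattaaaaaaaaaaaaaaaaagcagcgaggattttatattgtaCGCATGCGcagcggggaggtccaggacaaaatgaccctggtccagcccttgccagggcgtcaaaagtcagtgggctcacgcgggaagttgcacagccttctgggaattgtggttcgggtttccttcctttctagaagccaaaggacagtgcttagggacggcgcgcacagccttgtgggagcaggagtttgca

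In this window Timm8b held CAAGGTCA at -95 to -88 from the start, a motif that 1.33% of the 32851 RefSeq promoters held. Timm13 held CGCATGCG at -193 to -186, found in 1.55% of all promoters. RefSeq windows were found for 21 of the 24 genes. Among these, Tomm20 alone held the longer NRF1 motif (3.74% of all promoters), at -20 to -11, and Tomm70a, Timm23 and Timm8a2 held CCGGAAGT (2.88% of all). A match is a description of the letters and not a measured site.

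Timm8b had 26.8, 27.6, 28.8 and 24.6 CPM at 30 °C, 48.9, 51.2, 39.1 and 53.9 CPM at 22 °C, and 61.8, 69.6, 66.6 and 71.2 CPM at 6 °C. The 3 groups did not overlap and climbed toward the cold. It rose by 0.84 at 22 °C (SE 0.10, adjusted p = 3.90e-05) and by another 0.48 from 22 °C to 6 °C (SE 0.10, adjusted p = 0.00219). Over the whole range the rise was 2.5-fold, a log2 difference of 1.32 (SE 0.10, adjusted p = 3.53e-07), and 1.01 on the log2 scale with total counts only. Of the exon bases of Timm8b, 15.6% lie under Nkapd1 on the other strand, whose level was 16.1 CPM at 30 °C and 13.5 at 6 °C.

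Timm13 had 108, 107, 115 and 93.8 CPM at 30 °C, 157, 190, 129 and 167 CPM at 22 °C, and 108, 112, 106 and 117 CPM at 6 °C. All mice at 22 °C were above the others, and the 30 and 6 °C groups overlapped. It rose by 0.60 at 22 °C (SE 0.10, adjusted p = 5.76e-04) and fell by 0.54 from 22 °C to 6 °C (SE 0.10, adjusted p = 0.00206). The difference between 6 °C and 30 °C was 0.06 (SE 0.10, adjusted p = 0.626), and -0.25 with total counts only (adjusted p = 0.0281).

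Timm9 and Timm10, whose products form the main hexamer that guides carriers to the TIM22 complex, both rose at 22 and 6 °C against 30 °C. Timm9 had 24.9, 30.9, 30.0 and 21.5 CPM at 30 °C, 48.5, 49.6, 35.1 and 41.3 CPM at 22 °C, and 39.1, 44.1, 47.5 and 45.4 CPM at 6 °C. Timm10 had 23.6, 26.4, 27.7 and 22.7 CPM at 30 °C, 45.2, 47.1, 35.6 and 39.7 CPM at 22 °C, and 35.3, 40.0, 39.0 and 36.3 CPM at 6 °C. For both genes all mice at 22 and 6 °C were above those at 30 °C, and the 22 and 6 °C groups overlapped. Timm9 rose by 0.70 and 0.71 at 22 and 6 °C against 30 °C (SE 0.13 for both, adjusted p = 8.68e-04 and 4.77e-04). Timm10 rose by 0.74 and 0.59 (SE 0.10 for both, adjusted p = 9.29e-05 and 2.31e-04).

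Timm10b, which encodes the small TIM bound to the TIM22 complex, rose by 0.48 at 22 °C and by 0.58 at 6 °C against 30 °C (adjusted p = 0.00427 and 8.77e-04), the latter 0.26 with total counts only (adjusted p = 0.0676). Of its exon bases, 11.6% lie under Arfip2 and Gm22504 on the other strand and 10.5% within Gm45799 on the same strand. Arfip2 averaged 48.18, 62.05 and 57.09 CPM at 30, 22 and 6 °C. It rose by 0.25 at 6 °C against 30 °C (adjusted p = 0.0164 by edgeR), so the Timm10b count is uncertain. Timm8a1, the mouse counterpart of the gene mutated in a human deafness-dystonia syndrome, was scarce, at 1.37 ± 0.218, 2.07 ± 0.449 and 2.55 ± 0.22 CPM at 30, 22 and 6 °C (SD, n = 4). It rose by 0.90 at 6 °C against 30 °C (SE 0.20, adjusted p = 0.0017). Its rise at 22 °C (0.59, adjusted p = 0.0269) was lost when 30 °C mouse 1 (adjusted p = 0.0722), 30 °C mouse B (0.0509), 22 °C mouse 1 (0.0825) or 22 °C mouse 2 (0.0565) was left out, and with both letter-matched libraries left out (0.0633). Of its transcript, 41.0% of stretches of 50 bases also occur in the gene Gm9797, so its count is uncertain.

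Of the 6 tested TIM23 genes, 4 rose at 22 °C against 30 °C, and 2 of these fell from 22 °C to 6 °C. Timm50, the receptor that takes over presequences from the TOM complex, had 87.8, 103, 102 and 83.2 CPM at 30 °C, 127, 138, 105 and 126 CPM at 22 °C, and 92.9, 99.5, 96.8 and 97.4 CPM at 6 °C. All mice at 22 °C were above the others. Timm50 rose by 0.40 at 22 °C (SE 0.09, adjusted p = 0.00351) and fell by 0.36 from 22 °C to 6 °C (SE 0.09, adjusted p = 0.00967). Timm50 stood at 0.04 at 6 °C against 30 °C (adjusted p = 0.744), and at -0.27 with total counts only (adjusted p = 0.0073).

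Timm44, which tethers the import motor to the channel, had 143, 151, 159 and 120 CPM at 30 °C, 207, 226, 163 and 187 CPM at 22 °C, and 160, 158, 177 and 163 CPM at 6 °C. All mice at 22 °C were above those at 30 °C, and the 6 °C group overlapped with both. It rose by 0.45 at 22 °C (SE 0.11, adjusted p = 0.00403) and stood at 0.20 at 6 °C against 30 °C (SE 0.11, adjusted p = 0.122). Timm21, which links the TIM23 complex to the respiratory chain, did not pass between any pair of temperatures with TMM scaling, with 0.23 at 22 °C against 30 °C (SE 0.09, adjusted p = 0.0551) and -0.24 at 6 °C against 22 °C (SE 0.09, adjusted p = 0.0522). At 22 °C against 30 °C it passed with RLE scaling (0.25, adjusted p = 0.0393), DESeq2 (0.0426) and the exon length trend removed (0.027). With total counts only, Timm21 was lower at 6 °C against 30 °C (-0.33, adjusted p = 0.00152) and at 6 °C against 22 °C (-0.30, adjusted p = 0.00758). Timm23, the gene of the channel subunit, was given 29 to 271 reads per library. Of its transcript, 57.5% of stretches of 50 bases occur in other genes, most of them copies such as Gm10273, so its count is uncertain, and it did not pass between any pair of temperatures.

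The second channel subunit has 2 paralogs. Timm17a, whose product is turned over under stress, had 58.6, 64.7, 65.2 and 52.8 CPM at 30 °C, 79.8, 99.5, 75.8 and 83.1 CPM at 22 °C, and 85.3, 85.1, 95.1 and 90.4 CPM at 6 °C. All mice at 22 and 6 °C were above those at 30 °C. Timm17a rose by 0.49 and 0.56 at 22 and 6 °C against 30 °C (SE 0.09 for both, adjusted p = 0.00106 and 2.41e-04). Timm17b rose by 0.41 at 22 °C (SE 0.08, adjusted p = 9.13e-04) and then fell by 0.22 to 6 °C (SE 0.08, adjusted p = 0.0382). That fall was lost in 8 of the 12 fits that each left out 1 library (adjusted p of 0.0505 to 0.109), those without 30 °C mouse 2, any mouse at 22 °C, or 6 °C mouse 1, 3 or 4. It was also lost with RLE scaling (adjusted p = 0.0632), DESeq2 (0.0848), no filter (0.106) and the exon length trend removed (0.145). At 6 °C against 30 °C Timm17b stood at 0.18 (adjusted p = 0.0558), and it passed there with RLE scaling (0.24, adjusted p = 0.0174), DESeq2 (0.0138) and the length trend removed (0.00617).

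Timm22, the channel that inserts metabolite carriers and the uncoupling protein family, rose steeply. It had 21.3, 21.2, 21.6 and 19.3 CPM at 30 °C, 35.6, 35.6, 32.5 and 32.3 CPM at 22 °C, and 34.2, 42.8, 39.5 and 42.9 CPM at 6 °C. All mice at 22 and 6 °C were above those at 30 °C, and 6 °C mouse 1 fell within the range of the 22 °C group. Timm22 rose by 0.71 at 22 °C (SE 0.08, adjusted p = 4.24e-05) and 1.91-fold at 6 °C against 30 °C (0.93 as log2, SE 0.08, adjusted p = 1.42e-06), the latter 0.62 on the log2 scale with total counts only. The step from 22 °C to 6 °C (0.23, adjusted p = 0.0445) was lost in 10 of the 12 fits that left out 1 library (adjusted p of 0.0503 to 0.122), all but those without 30 °C mouse B or 6 °C mouse 1. A further TIM22 subunit, Timm29, stands in the table under its earlier name 1810026J23Rik and so outside the naming rule. It averaged 50.9, 65.2 and 70.0 CPM at 30, 22 and 6 °C and rose by 0.36 and 0.46 at 22 and 6 °C against 30 °C (adjusted p = 8.76e-04 and 7.98e-05).

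**Figure D2:**
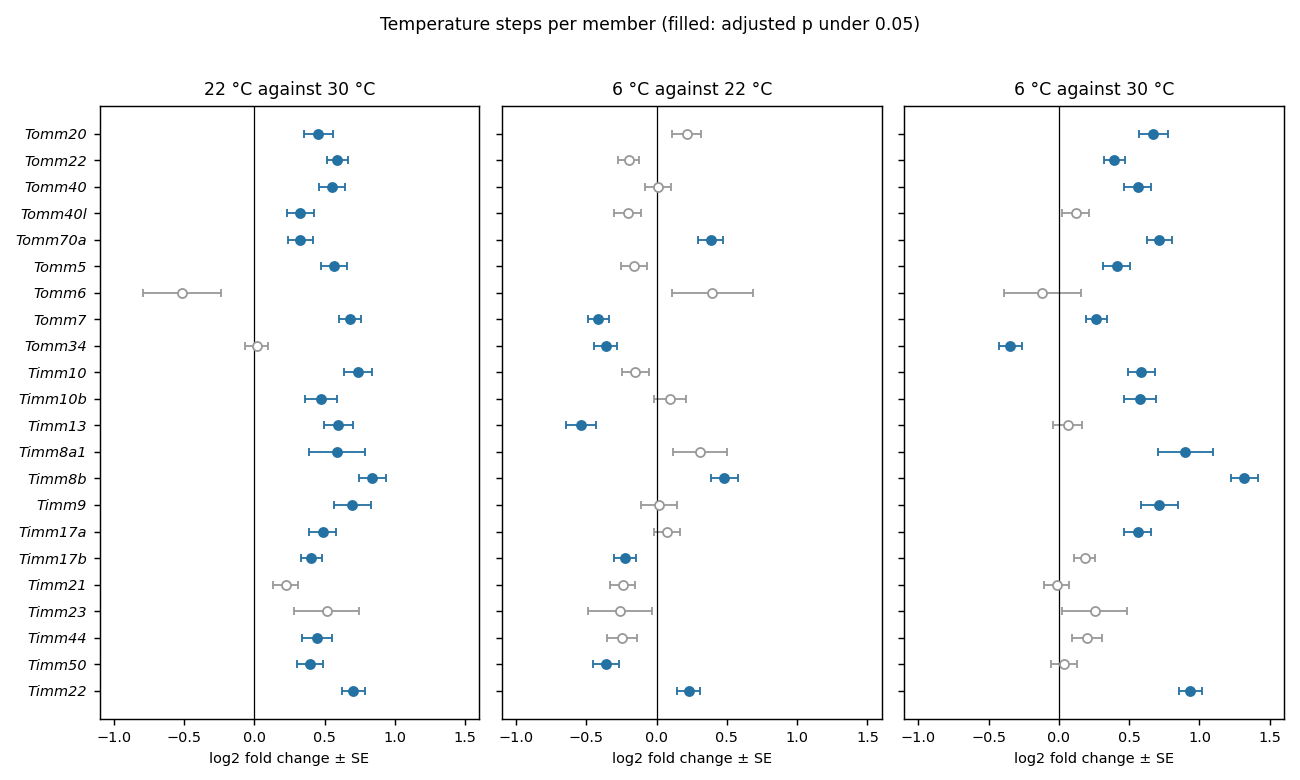
log2 fold change with its SE for each tested TOM and TIM gene in the 3 comparisons, filled where the adjusted p was under 0.05. In the left panel 18 of 22 points are filled and to the right of 0, in the middle panel 3 are filled to the right and 5 to the left, and in the right panel Timm8b at 1.32 lies farthest out.

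The second step was smaller than the first for most genes. The difference of the steps is the log2 fold change from 22 °C to 6 °C minus that from 30 °C to 22 °C, and both steps share the 22 °C libraries. It was negative for 13 of 22 genes and positive for 0 by edgeR's test, where 29.3% of all tested genes passed, 15.0% lower and 14.3% higher. By unadjusted p, 16 were lower and 0 higher, and DESeq2 called 13 and 0, without a count over all tested genes by these criteria. The most negative values were those of Timm13 (-1.135, adjusted p = 9.22e-04) and Tomm7 (-1.095, adjusted p = 1.93e-04). For Tomm70a the difference was 0.06 (adjusted p = 0.822) and for Timm8b -0.36 (adjusted p = 0.12). The negative count was 7 without 22 °C mouse 2 and 8 with total counts only.

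Ratios of partner genes within a library do not depend on the scaling between libraries, and several differed between temperatures. The pairs were chosen after the values were known, so they are given as descriptions. For each Timm13 read there were 0.254 ± 0.00662 Timm8b reads at 30 °C, 0.301 ± 0.0229 at 22 °C and 0.607 ± 0.0246 at 6 °C (SD, n = 4), with ranges of 0.248 to 0.262, 0.269 to 0.322 and 0.572 to 0.627. The 3 groups did not overlap. The Timm9 to Timm10 ratio was 1.07 ± 0.0909, 1.04 ± 0.0363 and 1.17 ± 0.0749, with the 30 °C mice spanning 0.949 to 1.17 and overlapping both other groups. The ratio was higher at 6 °C (1.104 to 1.25) than at 22 °C (0.987 to 1.07) without overlap. The Timm17a to Timm17b ratio was 3.27 ± 0.296, 3.46 ± 0.409 and 4.26 ± 0.386, and all mice at 6 °C were above those at 30 °C (3.77 to 4.66 against 2.85 to 3.53) while overlapping with 22 °C.

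Both ratios of Tomm70a to another receptor had their lowest mean at 22 °C. The Tomm70a to Tomm20 ratio was 4.73 ± 0.497, 4.38 ± 0.698 and 4.89 ± 0.478 at 30, 22 and 6 °C, with overlapping groups. The Tomm70a to Tomm22 ratio was 1.92 ± 0.0357 at 30 °C, 1.601 ± 0.0505 at 22 °C and 2.401 ± 0.109 at 6 °C, without overlap between groups. The Tomm70a to Tomm34 ratio, which sets the membrane receptor against the cytosolic helper, was 4.08 ± 0.491, 5.09 ± 0.697 and 8.53 ± 1.01. The Timm22 to Timm50 ratio was 0.223 ± 0.0177, 0.276 ± 0.0249 and 0.411 ± 0.0321 without overlap. It compares a single gene of the carrier route with a single gene of the presequence route and does not measure the routes. The Tomm40 to Tomm40l ratio was 2.32 ± 0.28, 2.72 ± 0.222 and 3.15 ± 0.17, and all mice at 6 °C were above those at 30 °C.

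**Figure D3:**
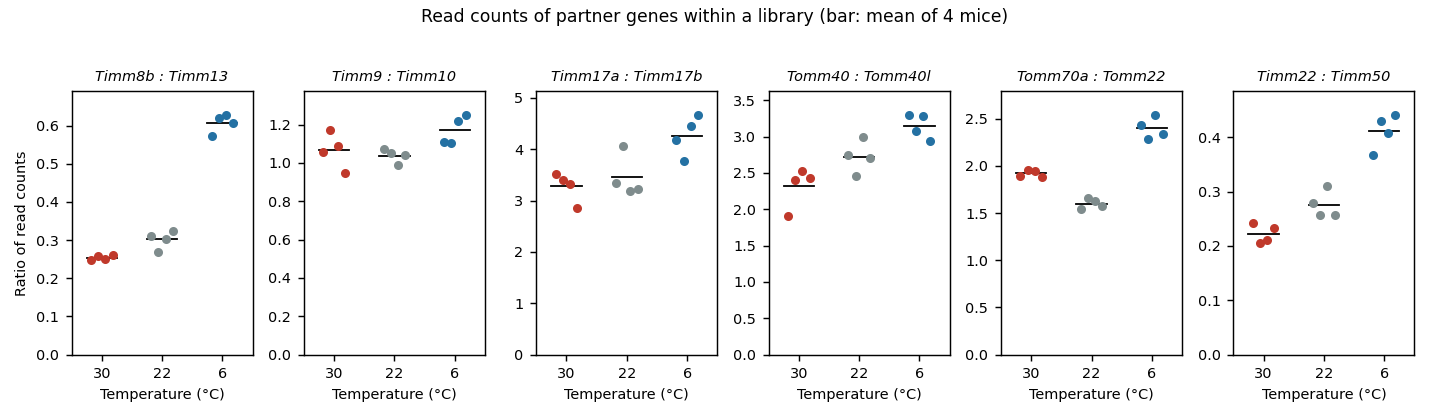
Ratio of the read counts of partner genes in each library, with 1 point per mouse, temperature on the horizontal axis and the mean of 4 mice as a bar, each panel on its own scale from 0. The Timm8b to Timm13 ratio goes from 0.254 at 30 °C to 0.607 at 6 °C, while the Timm9 to Timm10 ratio stays between 0.949 and 1.25.

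Levels of different genes were compared per length, as CPM per kilobase of the principal GENCODE transcript. At 30 °C Timm13 ranked first with 86.7 ± 7.33 CPM per kilobase, followed by Timm44 at 80.0 ± 9.36, a pair whose ranges overlapped (76.5 to 94.1 and 67.1 to 88.7). Timm50 came next at 62.2 ± 6.74 and Timm8b after it at 52.0 ± 3.46, with overlapping ranges as well (54.9 to 68.3 and 47.4 to 55.6). At 6 °C Timm8b ranked first, at 129.9 ± 7.997 CPM per kilobase, and its range of 119 to 137 lay above those of Timm44 (88.4 to 98.9) and Timm13 (86.7 to 95.7), which overlapped with each other. Among the receptors Tomm22 was the most abundant per length, at 28.8 CPM per kilobase at 30 °C and 37.8 at 6 °C, against 14.6 and 23.9 for Tomm70a and 3.76 and 5.98 for Tomm20. These levels rest on the annotated transcript lengths, such as 5964 bases for Tomm70a and 518 for Timm8b, and the forms in use were not examined.

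Counts for other parts of the import machinery stand beside all tested genes, of which 21.8% rose and 22.8% fell at 22 °C and 25.3% rose and 31.5% fell at 6 °C, both against 30 °C. The motor of the TIM23 complex had 5 of 7 genes higher and 1 lower at 22 °C, and 5 higher and 0 lower at 6 °C, both against 30 °C. Hspa9, the mitochondrial Hsp70 that pulls precursors in, rose from 725 CPM at 30 °C to 1201 at 22 °C and 1678 at 6 °C (1.21 as log2 at 6 °C against 30 °C, SE 0.10, adjusted p = 6.76e-07). Grpel1, its nucleotide exchange factor, rose by 1.05 and its relative Grpel2 by 0.41 over the same range, while the motor cochaperone gene Dnajc19 fell by 0.59 from 22 °C to 6 °C (adjusted p = 6.93e-04). Of the peptidases that trim imported proteins, 5 of 7 rose and 1 fell at 6 °C against 30 °C. Both subunits of the matrix processing peptidase rose, Pmpcb by 1.18 and Pmpca by 0.72 (adjusted p = 2.53e-07 and 2.97e-06), and Xpnpep3 rose by 0.95.

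All 3 genes of the disulfide relay that folds the small TIMs rose at 6 °C against 30 °C, Chchd4 by 0.80, Aifm1 by 0.80 and Gfer by 0.36. All 7 genes of outer membrane sorting and insertion rose in the same comparison, led by Mtch2 (1.04), Dnajc11 (1.08) and Mtx2 (0.88). The 3 genes of inner membrane insertion and of a TIM23 partner rose as well, with Cox18 at 0.39, Oxa1l at 0.27 and Romo1 at 0.26. Of the MICOS complex, which shapes the cristae and touches the TOM complex, 7 of 7 genes rose at 22 °C, and at 6 °C against 30 °C 3 of 7 did so. Among these Immt rose by 0.98, Chchd3 by 0.95 and Minos1 by 0.33.

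Of 5 cytosolic chaperone genes 2 rose at 22 °C and 3 at 6 °C against 30 °C, where 25.3% of all tested genes rose. At 6 °C the 3 were Hsp90aa1 (1.51), Dnaja2 (0.71) and Hsp90ab1 (0.44). Of 4 matrix chaperone genes 2 rose and 1 fell, with Hspd1 at 0.81, Hspe1 at 0.78 and Clpb at -0.47. Of 10 protease and prohibitin genes 8 rose, led by Lonp1, the main matrix protease (1.03), and Phb (0.98), followed by Afg3l2 (0.70) and Clpp (0.60). Of 3 beta-barrel channels 2 rose, Vdac1 by 0.51 and Vdac2 by 0.28, while Vdac3 stood at -0.02 (adjusted p = 0.856). Of 4 genes of the PINK1 pathway, which senses failed import at the TOM complex, 1 rose, a share near that of all tested genes. It was March5, a ubiquitin ligase of the outer membrane, at 1.09 (adjusted p = 3.52e-07), and Pink1 itself stood at 0.21 (SE 0.11, adjusted p = 0.127).

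The translocase genes were set beside the genes of large mitochondrial complexes that are imported. At 22 °C against 30 °C the median log2 fold change was 0.50 for the 22 translocase genes. It was 0.60 for 82 nuclear genes of the respiratory chain and ATP synthase and 0.53 for 74 mitochondrial ribosomal protein genes. For 89 genes with names starting with Rpl or Rps it was -0.06. Most of these encode cytosolic ribosomal proteins, but kinase genes such as Rps6ka1 and Rps6kb1 are among them. At 6 °C against 22 °C the medians were -0.16, -0.29, -0.11 and -0.33. With the exon length trend removed the median of the translocase genes in this step was 0.0077. Medians of the other lists were not computed with that trend removed, so this value cannot be set beside theirs. In that step 0 of 82 respiratory chain genes rose and 42 fell, and 9 of 74 mitochondrial ribosomal genes rose and 20 fell, beside 16.9% rising and 17.4% falling over all tested genes. At 6 °C against 30 °C the medians were 0.40, 0.30, 0.39 and -0.46. Differences between these lists were not tested.

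**Figure D4:**
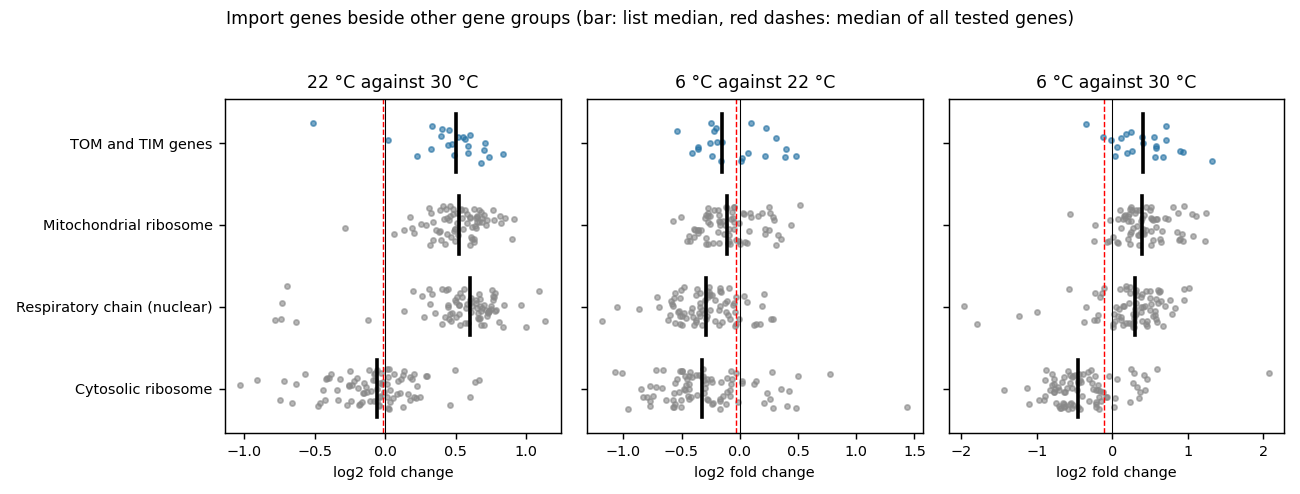
log2 fold change of each tested gene of 4 lists in the 3 comparisons, with the list median as a black bar and the median of all tested genes as red dashes. At 22 °C the TOM and TIM genes (median 0.50) lie with the mitochondrial ribosome (0.53) and the respiratory chain (0.60), apart from the cytosolic ribosome (-0.06). The list labelled cytosolic ribosome was taken by name (Rpl or Rps) and includes kinase genes such as Rps6ka1.

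Markers of the cells of the depot moved with temperature beside these genes. The summed CPM of 12 brown adipocyte markers was 10899 to 12763 at 30 °C, 16959 to 19770 at 22 °C and 24025 to 26312 at 6 °C. From 22 °C to 6 °C the mean of Ucp1, the uncoupling protein gene, went from 3371 to 10432 CPM, more than the change of the whole sum. In that step 3 of the 12 markers rose and 2 fell (Cidea and Adipoq), with a median of -0.05, and Adipoq fell by 0.78 at 6 °C against 30 °C (adjusted p = 2.77e-05). The sum of 12 macrophage markers was 564 to 1742, 162 to 229 and 268 to 508 CPM. At 30 °C it was 564 and 566 CPM in mice 1 and 2, and 1434 and 1742 CPM in mice A and B. That of 8 fibroblast markers was 2694 to 5150, 1049 to 1569 and 851 to 1058 CPM. At 30 °C its highest value was that of mouse B, against 2694 to 3037 CPM in mice 1, 2 and A. For 8 endothelial markers the sum was 1299 to 1557, 829 to 988 and 886 to 989 CPM. The sum of 7 white adipocyte markers was 283 to 368, 131 to 303 and 57.6 to 127 CPM, with up to 2 of them at 0 in a library. The part of these shifts in the translocase values was not tested. Skeletal muscle, which is also rich in mitochondria, can be dissected along with the depot, and the sum of its 20 markers ranged from 1071 to 5806 CPM at 30 °C, 1040 to 4065 at 22 °C and 82.9 to 2103 at 6 °C. With the muscle marker level as a covariate, 18 translocase genes were higher and 0 lower at 22 °C, and 13 higher and 1 lower at 6 °C, both against 30 °C.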

How the data were processed

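The values deposited by the authors are whole-number read counts, 1 row per Ensembl gene and 1 column per library, which were not normalised. Per the submitters' processing notes, the tools were STAR 2.4.2a, FastQC 0.10.1 and edgeR 3.14.0 and the genome names mm10 and GRCm38, whose roles those notes leave out. Not given in the sources used here: the program that counted, its annotation, its strand setting and any filter. Gene positions, names and lengths came from GENCODE M21 (GRCm38), which matched 96.6% of identifiers, and 27 symbols turned into dates in the table were restored from the identifiers.

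Genes with low counts were removed with filterByExpr by temperature, which left 14870 genes. Counts were scaled by TMM and fitted with edgeR 4.0.16 (R 4.3.3), with 1 factor of 3 temperatures over all 12 libraries, glmQLFit with robust estimation and two-sided glmQLFTest, with Benjamini-Hochberg adjustment across the 14870 genes. SEs are the log2 fold change over the square root of F. The fit was tested on simulated data for 6 against 30 °C, in which 200 of 14870 genes were changed. The changed genes were drawn from all tested genes, whatever their level. It recovered 40 of 100 genes changed 1.5-fold and 73 of 100 changed 2-fold, with 0 of wrong sign and 3 false calls. In the real data 56.8% of tested genes passed in this comparison, so the adjustment acted in a different setting. The recovery therefore does not measure the power for the translocase genes. A gene that did not pass can still have changed. Libraries of 1 temperature differed by more than counting noise (the smallest chi-square was 22.8 times its degrees of freedom), so none was counted as a copy. Every member is described, and of other lists up to 3 members with the smallest p at 6 against 30 °C, with any further name chosen after its values were seen. The members and lists were chosen with earlier results of these data known. Shared sequence was counted as stretches of 50 bases found in transcripts of other genes. Alternatives were RLE scaling, total counts, no filter, DESeq2 1.42.0, the mouse number as a block, leaving out each library or both unmatched ones, the muscle marker level as a covariate, an offset for exon length, and an adjusted p under 0.01.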

Additional observations from a re-analysis of the deposited data

Results flagged for a closer look

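Within the 4 mice of a temperature, 4 values lay apart from the other 3 by more than Dixon's 95% limit, out of 66 groups of values examined, where chance gives about 1 in 20. At 6 °C, mouse 3 had 85.5 CPM of Tomm40 against 81.2 to 81.9 in the others, and 2.51 CPM of Timm23 against 1.66 to 1.78. At 6 °C, mouse 2 had 16.8 CPM of Timm10b against 13.0 to 13.4. At 22 °C, mouse 2 had 74.6 CPM of Tomm22 against 65.2 to 66.5.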

How the results depend on the processing

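Of 1848 values of single genes under the alternatives, 1715 kept their side of the threshold, 97 lost and 31 gained a call, and 5 that passed in one of the fits changed sign, all 5 with total counts only. These were Timm50 (-0.27), Tomm40l (-0.19), Timm13 (-0.25) and Tomm7 (-0.048) at 6 °C against 30 °C and Tomm34 (-0.25) at 22 °C against 30 °C. A change of sign where neither fit passed was not counted. Shares of all tested genes were not counted under the alternatives. With total counts only, the number of genes called at 22 °C against 30 °C was 10 higher and 2 lower, the number lower was 5 at 6 °C against 30 °C and 9 at 6 °C against 22 °C, and 8 had a negative difference of the steps. At an adjusted p under 0.01 the last count was 7. Leaving out each library in turn gave 13 to 14 higher and 1 to 1 lower at 6 °C against 30 °C, 17 to 19 higher and 0 lower at 22 °C against 30 °C, 2 to 3 higher and 4 to 7 lower at 6 °C against 22 °C, and 7 to 14 negative and 0 positive differences of the steps. RLE scaling, DESeq2, no filter, the exon length offset and the muscle covariate moved none of the counts by over 1.5 times. The mouse number was fitted as a replicate block in the 10 matched libraries. Correlations of the deviations of same-numbered mice ran from -0.0419 to 0.347. Correlations of mice with different numbers were not computed, so these values do not show a pairing. The labels name none either. Each mouse lived at a single temperature, and several sample titles carry a number other than the mouse number. With the block 0 genes were lower at 6 °C against 30 °C, where Tomm34 stood at -0.27 (adjusted p = 0.126), 12 were higher there, without Tomm7 (adjusted p = 0.0517), and 8 had a negative difference of the steps. At 22 °C against 30 °C the block gave 14 higher, without Tomm70a (0.0668), Tomm20 (0.071), Tomm40l (0.0922) and Timm8a1 (0.0577). From 22 °C to 6 °C it gave 2 higher and 4 lower, without Timm22 (0.0692) and Timm17b (0.0828). Part of these losses came with the smaller set of libraries. The same 10 libraries without the block gave 16 higher at 22 °C against 30 °C and 9 negative differences of the steps. In that fit Tomm40l (0.0999) and Timm8a1 (0.0633) were lost at 22 °C, and Timm17b (0.0584) from 22 °C to 6 °C. Tomm6, Timm23 and Timm8a1 had few reads, with at most 24, 271 and 171 in a library. As given above, they also share exon bases or sequence with other genes.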
